A study of Homo sapiens with 4 samples.

Results

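The Eph receptors and ephrins described here are 9 genes of the largest family of receptor tyrosine kinases and their membrane-bound ligands, namely the receptors EPHA2, EPHA4, EPHB2, EPHB3 and EPHB4 and the ligands EFNA1, EFNA5, EFNB1 and EFNB2. They were taken by name from a table of 56753 loci, and each was found in 1 locus that names no other gene. The table comes from RNA-seq of 786-O cells, an established human line of clear cell renal cell carcinoma that lacks functional VHL. The cells had been stably transduced with PRDM16 lentivirus or with a control vector, with 2 libraries in each group, to ask how PRDM16, a zinc finger regulator of transcription, affects their transcriptome. All 4 libraries came from this line, grown adherent in standard culture. The labels do not say whether the libraries of a group came from separate cultures, clones or pools, so any p-value covers the spread between the deposited libraries alone, and that spread may be technical.

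Eph receptors are activated when cells touch, because both the receptors and the ephrins are held in the membrane. EphA receptors mainly bind the A ephrins, which are anchored by a lipid, and EphB receptors mainly bind the B ephrins, which span the membrane, while EPHA4 binds ligands of both classes. Signals run forward into the receptor-bearing cell and in reverse into the ephrin-bearing cell, and they guide cell repulsion, adhesion, boundary formation and vessel growth. In epithelial tumours EPHA2 is often abundant, and its activity without ligand differs from that with EFNA1 bound.

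Levels are given as FPKM, which divides fragments by transcript length and by library size, so that genes can be compared with each other. PRDM16 itself was at 1226 and 1146 FPKM in the PRDM16 libraries, against 0.0157 and 0.234 FPKM in the control vector libraries. Relative to control vector replicate 1, the other libraries were 1.17 to 1.39 times as deep, estimated from the lowest values of the table. Control vector replicate 2 stood apart. The median absolute log2 difference over 13246 loci was 0.19 to 0.23 for the pairs that include it, and 0.10 to 0.12 for the other pairs. Of the markers listed for renal tubule and clear cell carcinoma lines, 5 were measured alone (PAX8, PAX2, VIM, KRT8 and KRT19). Each was above 1 FPKM on average. They summed to 3917 to 4041 FPKM in PRDM16 libraries, against 4072 to 4083 FPKM in control vector libraries. Most of each sum was VIM, at 3408 and 3330 FPKM in PRDM16 libraries, against 3455 and 3437 FPKM in control vector libraries. The sum therefore says little about the other markers. Among the markers measured alone, 4 leukocyte genes summed to 0.143 to 0.280 FPKM in PRDM16 libraries, against 0.194 to 0.202 FPKM in control vector libraries, with CD3E listed at 0 in all 4 libraries. For 5 endothelial genes the sums were 0.342 to 0.407 FPKM in PRDM16 libraries and 0.347 to 0.435 FPKM in control vector libraries. For 4 fibroblast genes, of which DCN was listed at 0 and LUM was above 1 FPKM, they were 2.72 to 2.83 FPKM in PRDM16 libraries and 2.505 to 3.28 FPKM in control vector libraries. The markers CDH6, KRT18, CD68 and PDGFRA share loci with other genes and were left out. The locus with CD68 was at 473 and 477 FPKM in PRDM16 libraries, against 448 and 362 FPKM in control vector libraries. That with PDGFRA was at 38.3 and 39.6 FPKM, against 32.4 and 31.1 FPKM, so these markers remain unresolved.

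EPHA2 was by far the highest of the 9 genes, with a mean of 149.9 FPKM over the 4 libraries. EPHB2 followed at 39.4 FPKM, then the ligand EFNA5 at 17.4 FPKM, and the ranges of these genes did not overlap. EFNA1 at 7.95, EFNB2 at 6.19, EPHA4 at 3.94 and EFNB1 at 3.69 FPKM came next, and each overlapped its neighbour in that order, although EFNB2 was above EPHA4 in 4 of 4 libraries. EPHB4 was at 1.31 FPKM, and EPHB3 was near the floor at 0.0402 FPKM. EPHA2 made up 73.2% and 72.6% of the summed FPKM of all singly measured Eph receptors in PRDM16 libraries, against 69.6% and 69.4% in control vector libraries. Its share was therefore higher in both PRDM16 libraries, as a description with no test. EFNA5 was the highest of the singly measured ephrins. It made up 54.0% and 45.8% of their summed FPKM in PRDM16 libraries, against 50.1% and 46.3% in control vector libraries, so that the groups overlapped. That sum leaves out the locus that EFNA3 and EFNA4 share, which had a mean of 8.59 FPKM over the 4 libraries.

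**Figure D1:**
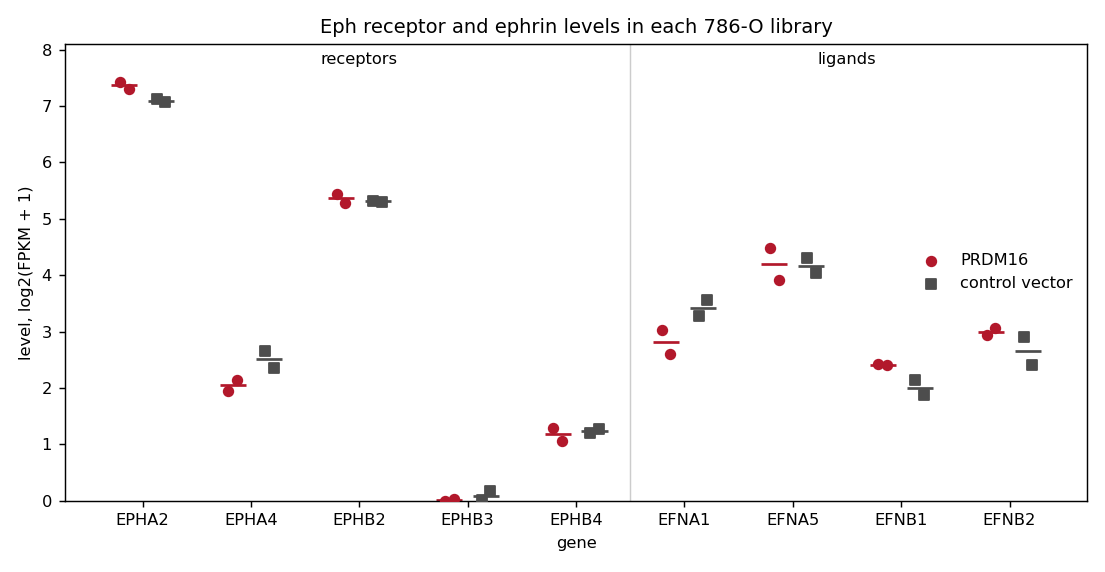
Level of each of the 9 genes in each library on the log2(FPKM + 1) scale, with PRDM16 libraries as circles, control vector libraries as squares, and a line at each group's mean on that scale. EPHA2 stands above the rest at a mean of 149.9 FPKM, and EPHB3 lies near 0.

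No Eph receptor or ephrin passed the test across the table. Of the 9 genes, 8 reached the mean of 1 FPKM needed for testing, and limma called 0 of them at an adjusted p under 0.05, where 0.0226% of all 13246 tested loci were called. The introduced gene PRDM16 was itself among the called loci, with the smallest adjusted p by limma, 0.000317. Unadjusted p was under 0.05 for 4 of the 8, where it was for 6.12% of all tested loci. With the replicate number as a block that count was 1, and the count over all tested loci also fell, from 811 to 422. The size of the change in those 4 genes varied with the library left out. Log2 changes then ran from 0.21 to 0.33 for EPHA2 and from 0.28 to 0.54 for EFNB1. They ran from -0.62 to -0.32 for EPHA4 and from -0.81 to -0.39 for EFNA1. Both PRDM16 libraries lay on one side of both control vector libraries for 5 of the 8, where 41.4% of all tested loci did so. Those were EPHA2, EFNB1 and EFNB2, which were higher in both PRDM16 libraries, and EPHA4 and EFNA1, which were lower. The 9 genes were chosen with earlier results of these data known. The counts of 4 and 5 of the 8 are therefore descriptions and do not test whether the family stands out from the table. Over the 8 genes the median log2 change was 0.04, beside a median of 0.00399 over all tested loci, and the changes ran from -0.60 to 0.41. Changes are on the log2(FPKM + 1) scale, which understates those of low genes. With 2 libraries against 2, the 3 possible splits give an exact two-sided permutation p of 1 in 3 at best, so only model p-values are given. In bulk RNA, fewer cells that express a gene and less RNA per cell cannot be told apart.

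Among the receptors, EPHA2 was at 171 and 158 FPKM in PRDM16 libraries, against 138 and 133 FPKM in control vector libraries. Both PRDM16 libraries were above both control vector libraries. The means were 164 ± 9.21 FPKM in PRDM16 and 136 ± 3.93 FPKM in control vector (SD, n = 2 each), a ratio of 1.21. On the log2 scale the change was 0.27 (SE 0.09, 95% interval 0.04 to 0.51), with a limma p of 0.0320 and an adjusted p of 0.689. EPHA2 lies on the minus strand of chromosome 1 at 16124337 to 16156087 in GRCh38, the assembly of the hg38 build.

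EPHA4, the receptor that binds both ligand classes, was at 2.85 and 3.43 FPKM in PRDM16 libraries, against 5.33 and 4.14 FPKM in control vector libraries. Both PRDM16 libraries were lower. Its means were 3.14 ± 0.408 FPKM in PRDM16 and 4.73 ± 0.836 FPKM in control vector (SD, n = 2 each), a 1.51-fold lower level. The log2 change was -0.47 (SE 0.16, 95% interval -0.89 to -0.04), with a limma p of 0.0378 and an adjusted p of 0.689. The gene spans 221418027 to 221574202 on the minus strand of chromosome 2. An annotated gene on the opposite strand overlaps its exons, and whether the libraries kept strand is not given in the sources used here, so reads of the pair cannot be told apart there.

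EPHB2, a receptor for B ephrins known in mice for positioning cells in the intestinal epithelium, was at 42.4 and 38.1 FPKM in PRDM16 libraries, against 39.0 and 38.3 FPKM in control vector libraries. The groups overlapped, with a log2 change of 0.06 (95% interval -0.20 to 0.31, limma adjusted p = 0.847). An annotated microRNA gene on the opposite strand overlaps its exons. EPHB4, the partner of EFNB2 in vessel development of mice, was at 1.45 and 1.08 FPKM in PRDM16 libraries, against 1.30 and 1.42 FPKM in control vector libraries. It too overlapped between groups, with a log2 change of -0.06 (95% interval -0.51 to 0.38, limma adjusted p = 0.908). Exons of SLC12A9 on the other strand overlap those of EPHB4. EPHB3 was listed at 0 and at 0.0234 FPKM in PRDM16 libraries, against 0.00687 and 0.131 FPKM in control vector libraries, and was too low to be tested. Without PRDM16 replicate 1 the log2 change of EPHB2 was -0.02, and without PRDM16 replicate 2 that of EPHB4 was 0.06, so neither kept its direction.

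Among the ligands, EFNA1, the main ligand of EPHA2, was at 7.16 and 5.10 FPKM in PRDM16 libraries, against 8.73 and 10.8 FPKM in control vector libraries. The PRDM16 libraries were both lower. The means were 6.13 ± 1.45 FPKM in PRDM16 and 9.76 ± 1.46 FPKM in control vector (SD, n = 2 each), 1.59-fold lower with PRDM16. Its log2 change was -0.60 (SE 0.19, 95% interval -1.10 to -0.10), with a limma p of 0.0280 and an adjusted p of 0.689. That was the change furthest from 0 among the 8 tested genes, and it was -0.39 without PRDM16 replicate 2. EFNA1 lies on chromosome 1 at 155127460 to 155134857, plus strand. EFNA3 and EFNA4, which lie upstream of it on the same strand, share 1 locus with a further gene in the deposited table. That locus was at 8.26 and 8.60 FPKM in PRDM16 libraries, against 8.88 and 8.65 FPKM in control vector libraries.

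EFNA5, an A ephrin known in mice as a repulsive cue for growing axons, was at 21.4 and 14.1 FPKM in PRDM16 libraries, against 18.8 and 15.4 FPKM in control vector libraries. The spread within PRDM16 was wider than the difference between the groups. The log2 change was 0.03 (SE 0.23, 95% interval -0.56 to 0.63, limma adjusted p = 0.965). Leaving out PRDM16 replicate 1 gave -0.25, and leaving out control vector replicate 2 gave -0.10.

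EFNB1 and EFNB2 were higher in both PRDM16 libraries, while EFNB3, the other B ephrin, was near the floor at 0.0219 and 0 FPKM in PRDM16 libraries, against 0.0642 and 0.105 FPKM in control vector libraries. EFNB1, which is X-linked and known from craniofrontonasal syndrome, was at 4.39 and 4.29 FPKM in PRDM16 libraries, against 3.40 and 2.68 FPKM in control vector libraries. The means were 4.34 ± 0.0664 FPKM in PRDM16 and 3.04 ± 0.508 FPKM in control vector (SD, n = 2 each), a ratio of 1.43. On the log2 scale the change was 0.41 (SE 0.14, 95% interval 0.04 to 0.78), with a limma p of 0.0367 and an adjusted p of 0.689. The PRDM16 libraries lay close together, and the control vector libraries spread below them.

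EFNB2, known in mice as a marker of arterial endothelium, was at 6.67 and 7.34 FPKM in PRDM16 libraries, against 6.499 and 4.28 FPKM in control vector libraries. The low value of control vector replicate 2 carried most of the difference. The means were 7.003 ± 0.474 FPKM in PRDM16 and 5.39 ± 1.57 FPKM in control vector (SD, n = 2 each), a ratio of 1.30. Its log2 change was 0.35 (SE 0.20, 95% interval -0.18 to 0.87, limma adjusted p = 0.689). Leaving out control vector replicate 2 gave 0.09, and leaving out control vector replicate 1 gave 0.60. Exons of an annotated gene on the opposite strand overlap EFNB2.

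**Figure D2:**
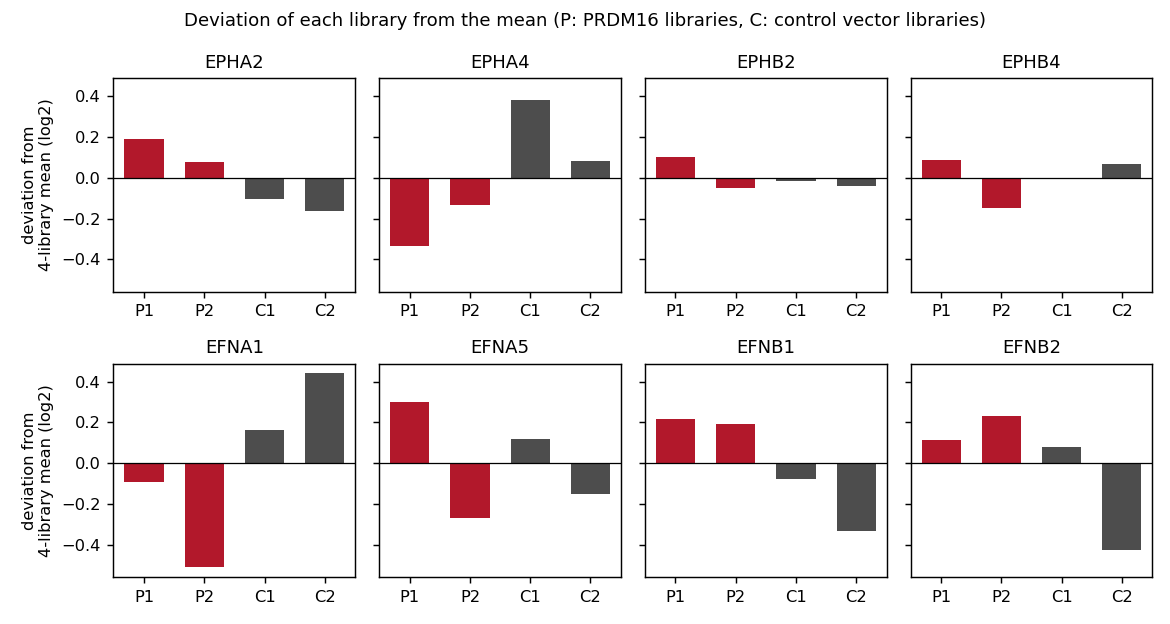
Deviation of each library from the mean of the 4 libraries in log2(FPKM + 1), for the 8 tested genes, with PRDM16 libraries (P1, P2) in red and control vector libraries (C1, C2) in grey. EPHA2 and EFNB1 are above their mean in both PRDM16 libraries, EPHA4 and EFNA1 below it in both, and for EFNB2 control vector replicate 2, at 4.28 FPKM, is the library far from the rest.

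**Figure D3:**
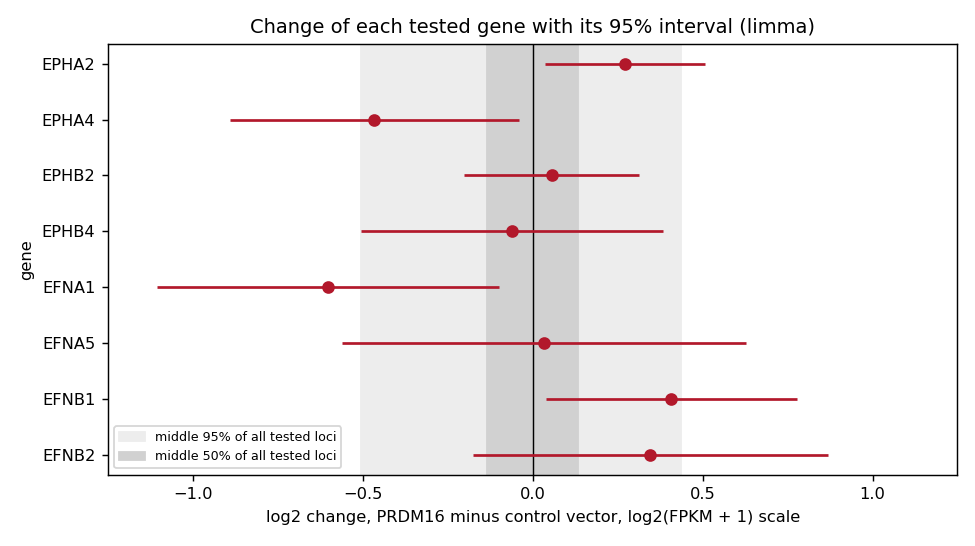
Log2 change (PRDM16 minus control vector) of the 8 tested genes as points, with limma 95% intervals as lines, over bands that hold the middle 50% and the middle 95% of the changes of all 13246 tested loci. EFNA1 at -0.60 lies outside the wider band, and the other 7 points lie inside it.

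The ratio of the receptor EPHA2 to its ligand EFNA1 was singled out after the values were seen. EPHA2 exceeded EFNA1 by 23.8 and 30.9 times in PRDM16 libraries, against 15.9 and 12.3 times in control vector libraries. Both PRDM16 ratios were above both control vector ratios, which follows from the opposite order of the genes themselves. EPHA2 over EPHA4 was 59.9 and 46.0 in PRDM16 libraries, against 26.0 and 32.1 in control vector libraries. EFNA1 made up 18.04% and 16.5% of the summed ephrin FPKM in PRDM16 libraries, against 23.3% and 32.5% in control vector libraries. The B ephrins made up 27.9% and 37.7% in PRDM16 libraries, against 26.5% and 21.2% in control vector libraries. These shares leave out the EFNA3 and EFNA4 locus and have no test.

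The likeness of patterns was measured as the root mean square difference of log2(FPKM + 1) after each gene was centred on its mean over the 4 libraries. The measure counts the size of deviations as well as their direction, so genes that vary little lie near each other. Among the 10 tested family genes, EPHB2 and EPHB4 were nearest to each other, at 0.07, with log2 changes of 0.06 and -0.06. EFNB1 was nearest to EPHA2 at 0.10, EFNB2 to EFNB1 at 0.11, and EPHA2 to EPHB1 at 0.10. EFNA5 was nearest to EPHB2 at 0.17, EPHA4 to EPHA6 at 0.22 and EFNA1 to EPHB4 at 0.29, so no family gene followed EPHA4 or EFNA1 closely. Over 8430 singly named loci with a mean of at least 5 FPKM, the nearest to EPHA2 were SPRY2 (0.01), PSMG4 (0.01) and ARRB1 (0.01). SPRY2, a feedback inhibitor of receptor tyrosine kinase signalling, was at 7.46 and 6.99 FPKM in PRDM16 libraries, against 5.94 and 5.63 FPKM in control vector libraries. The nearest to EFNA5 were DLC1 (0.06) and the clone-named loci CTD-2108O9.4 (0.07) and RP11-760D2.7 (0.07). With 4 libraries and so many loci, close matches are plentiful.

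To show the sequence in front of the genes whose libraries did not overlap, the 250 bases upstream of each RefSeq transcript start (GRCh38.p14, read on the strand of the gene) follow. The 9 genes had 11 such entries, and the 6 of EPHA2, EPHA4, EFNA1, EFNB1 and EFNB2 are printed. RefSeq starts can lie inside the gene spans given above. The EFNA1 stretch and the first EPHA4 stretch lie wholly within those spans, and the EPHA2 stretch overlaps its span in part. Capitals mark the core letters bound by hypoxia-inducible factors (ACGTG or GCGTG, either strand) and, in EPHA2, also the cyclic AMP response element TGACGTCA.
EPHA2, chr1:16156070-16156319, minus strand: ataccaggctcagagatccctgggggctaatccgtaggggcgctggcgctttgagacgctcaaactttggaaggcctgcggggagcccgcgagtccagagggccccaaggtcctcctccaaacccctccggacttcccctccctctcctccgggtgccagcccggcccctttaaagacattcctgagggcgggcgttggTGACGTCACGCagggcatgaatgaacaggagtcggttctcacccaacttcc
EPHA4, chr2:221572305-221572554, minus strand: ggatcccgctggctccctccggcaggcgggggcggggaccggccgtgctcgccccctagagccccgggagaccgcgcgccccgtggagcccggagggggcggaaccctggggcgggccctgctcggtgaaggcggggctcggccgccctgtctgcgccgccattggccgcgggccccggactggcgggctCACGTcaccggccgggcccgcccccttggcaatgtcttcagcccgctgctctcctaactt
EPHA4, chr2:221574203-221574452, minus strand: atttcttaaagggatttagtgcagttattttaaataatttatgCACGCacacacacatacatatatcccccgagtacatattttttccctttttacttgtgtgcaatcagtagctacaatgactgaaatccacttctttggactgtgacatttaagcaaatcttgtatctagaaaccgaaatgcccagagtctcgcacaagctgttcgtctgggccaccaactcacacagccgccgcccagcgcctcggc
EFNA1, chr1:155127626-155127875, plus strand: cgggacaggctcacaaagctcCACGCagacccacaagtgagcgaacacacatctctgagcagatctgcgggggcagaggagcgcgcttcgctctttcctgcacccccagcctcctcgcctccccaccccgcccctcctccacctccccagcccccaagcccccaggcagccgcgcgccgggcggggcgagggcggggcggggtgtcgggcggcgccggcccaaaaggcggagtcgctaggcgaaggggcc
EFNB1, chrX:68828771-68829020, plus strand: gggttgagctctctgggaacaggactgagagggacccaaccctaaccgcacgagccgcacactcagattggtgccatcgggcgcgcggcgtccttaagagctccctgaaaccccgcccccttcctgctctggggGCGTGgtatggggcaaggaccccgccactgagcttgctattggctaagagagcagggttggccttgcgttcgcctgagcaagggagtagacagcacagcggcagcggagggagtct
EFNB2, chr13:106535663-106535912, minus strand: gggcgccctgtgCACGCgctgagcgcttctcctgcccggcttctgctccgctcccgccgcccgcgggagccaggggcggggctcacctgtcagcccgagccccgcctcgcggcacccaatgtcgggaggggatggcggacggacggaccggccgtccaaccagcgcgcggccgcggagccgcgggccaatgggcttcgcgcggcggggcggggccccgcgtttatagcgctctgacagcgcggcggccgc
The hypoxia core was found in 10 of the 11 entries, including those of EFNA5, EPHB2 and EPHB4, whose libraries overlapped, and was missing from EPHB3. It was found in 43.2% of 35116 RefSeq promoter entries of the same length. Entries are not independent, since EPHA4 and EPHB2 have more than 1 each, and those of EPHB2 start at 22710588 and 22710589. By gene, the core was found in 8 of the 9. The G and C content of the 11 entries ran from 43.2% to 84.8%, beside a median of 58.0% over all entries. Only the second EPHA4 entry lay below that median, and the next lowest was that of EPHA2 at 63.2%. The core letters hold a C followed by a G, and the share over all entries was not matched for G and C content. The counts of the core therefore do not show that it is more frequent in this family. TGACGTCA was found in 1 of the 11, starting at position -51 of EPHA2 and overlapping the hypoxia core at -45, and in 1.65% of all entries. The AP-1 letters TGANTCA were in 0 of the 11 and in 6.57% of all entries. These are matches of letters only, and no binding was measured.

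The family has 13 further genes, of which 11 were measured alone. Of those, 2 reached 1 FPKM and neither was called by limma. EPHB1, at a level above every ligand but EFNA5, was at 14.1 and 14.7 FPKM in PRDM16 libraries, against 13.2 and 13.2 FPKM in control vector libraries, with a log2 change of 0.12 (95% interval -0.12 to 0.35, limma adjusted p = 0.693). EPHA6 was at 1.11 and 1.37 FPKM in PRDM16 libraries, against 1.42 and 1.18 FPKM in control vector libraries. EPHA1 was below the limit for testing, at 0.459 and 0.684 FPKM in PRDM16 libraries, against 0.268 and 0.318 FPKM in control vector libraries. EPHA3 and EPHA7 were listed at 0 in every library, and EPHA5, EPHA8, EPHA10, EPHB6, EFNA2 and EFNB3 had means of at most 0.0479 FPKM. Exons of EPHA1, EPHA5 and EPHB1 each overlap a gene on the other strand.

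Genes that carry Eph and ephrin signals were taken as 3 lists with 50 genes in all, of which 46 were measured alone and 40 were tested. Limma called 0 of the 40, and 2 had an unadjusted p under 0.05, a share close to the 6.12% of all tested loci. Libraries did not overlap for 14 of the 40, with 4 higher and 10 lower in PRDM16. Those are 10% and 25% of the 40, beside 21.1% and 20.3% of all tested loci.

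The receptor's forward pathway, made of adaptors, guanine nucleotide exchange factors, kinases and small GTPases, had 23 tested genes of 30, of which 10 had a higher and 13 a lower mean. Libraries did not overlap for 7 (2 higher and 5 lower), or 30.4%, beside 41.4% of all tested loci. Their median log2 change was -0.03. Smallest in p was ITSN1, an exchange factor for CDC42 that binds EPHB2 in rodent neurons, at 24.5 and 25.7 FPKM in PRDM16 libraries, against 29.5 and 30.7 FPKM in control vector libraries, a log2 change of -0.25 (limma adjusted p = 0.689). INPPL1, a lipid phosphatase that binds EPHA2, was at 53.8 and 51.9 FPKM in PRDM16 libraries, against 59.2 and 64.0 FPKM in control vector libraries. NCK2, an adaptor on both sides of the contact, was at 51.5 and 49.2 FPKM in PRDM16 libraries, against 54.1 and 60.3 FPKM in control vector libraries. All of these were lower in both PRDM16 libraries.

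The reverse pathway of the B ephrins had 8 tested genes of 11, with 2 higher and 6 lower means and a median log2 change of -0.12. Libraries did not overlap for 5 (1 higher and 4 lower), or 62.5%, beside 41.4% of all tested loci. PTPN13, a phosphatase with PDZ domains that binds the tails of B ephrins in mice, was at 14.6 and 12.8 FPKM in PRDM16 libraries, against 20.8 and 20.5 FPKM in control vector libraries. Its groups were well apart, at 13.7 ± 1.27 FPKM in PRDM16 and 20.7 ± 0.194 FPKM in control vector (SD, n = 2 each). On the log2 scale the change was -0.57 (SE 0.10, 95% interval -0.84 to -0.29), with a limma p of 0.00372 and an adjusted p of 0.689. RGS3, which in mice binds the same tails and restrains G protein signals, was at 47.1 and 49.3 FPKM in PRDM16 libraries, against 41.9 and 40.2 FPKM in control vector libraries, a log2 change of 0.22 (limma adjusted p = 0.689).

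Shedding and turnover had 10 tested genes of 10, with 3 higher and 7 lower means and a median log2 change of -0.05. Of these, 3 (1 higher and 2 lower) did not overlap, beside 41.4% of all tested loci. CBLB, a ubiquitin ligase, was at 4.70 and 4.43 FPKM in PRDM16 libraries, against 5.42 and 8.06 FPKM in control vector libraries, so that control vector replicate 2 was the library apart. ADAM17, a membrane protease, was at 19.1 and 16.7 FPKM in PRDM16 libraries, against 18.9 and 23.9 FPKM in control vector libraries. CBL, a relative of CBLB, was at 8.03 and 7.21 FPKM in PRDM16 libraries, against 8.12 and 8.84 FPKM in control vector libraries. Adjusted p by limma was 0.689 to 0.972 across the list.

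**Figure D4:**
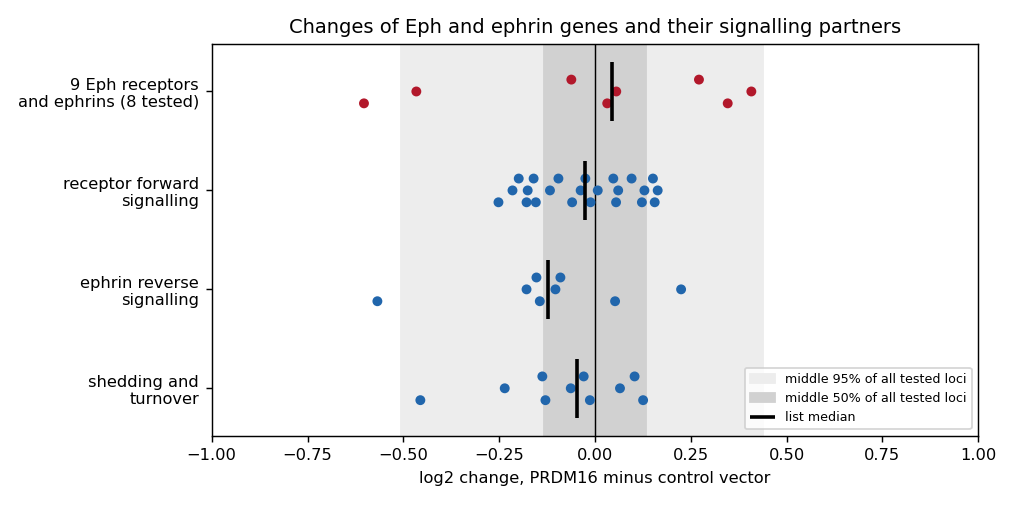
Log2 change (PRDM16 minus control vector) of each tested gene, by list, with the list median as a black line and bands for the middle 50% and 95% of all tested loci. PTPN13 at -0.57, in the reverse signalling list, is the only partner gene outside the wider band.

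**Figure D5:**
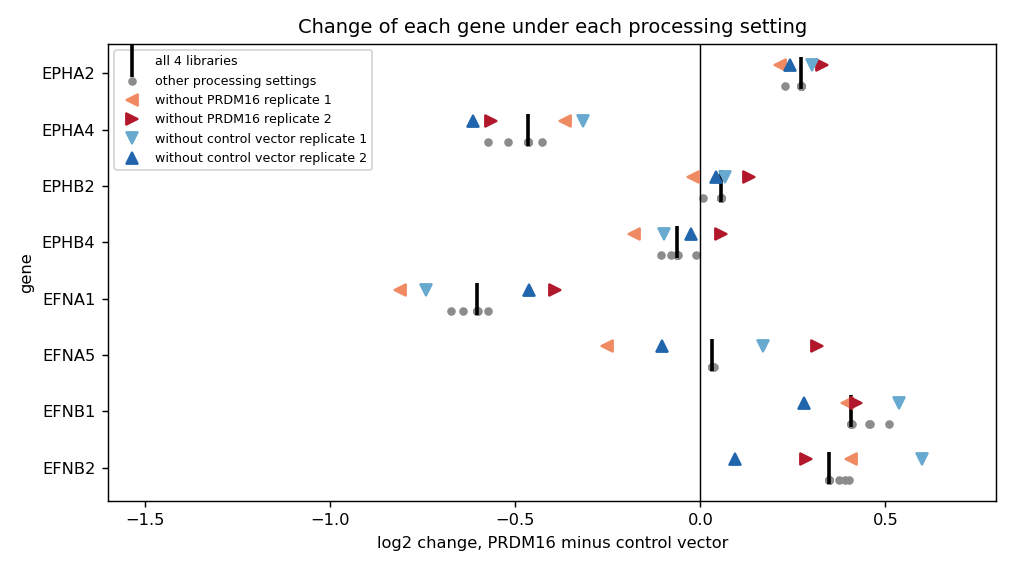
Log2 change (PRDM16 minus control vector) of the 8 tested genes with all 4 libraries (black line), with each library left out in turn (triangles) and under the other processing settings (grey points). EPHA2, EPHA4, EFNA1, EFNB1 and EFNB2 stay on their side of 0 in each setting, with EFNB2 reaching 0.09, while EPHB2, EPHB4 and EFNA5 do not. For genes whose libraries did not overlap, leaving a library out could not change the side.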

How the data were processed

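RNA-seq of total RNA from 2 PRDM16 and 2 control vector libraries was used, grouped by the vector named in the labels. Per the submitters' processing notes, the tools were TopHat2 2.1.0, Cufflinks 2.2.1, Cuffdiff and Trim Galore, with the hg38 build. Annotation, filters, library scaling and strandedness are not given there. The deposited values were taken as FPKM made by the authors, since the header names no unit, the values are not whole and Cufflinks writes this unit. Read numbers are unknown, so no counting interval is given. Each of the 11 loci for genes of the mitochondrial genome was at 0 throughout, so a 0 elsewhere may be a failed estimate.

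Loci with a mean of at least 1 FPKM were tested with limma 3.58.1 in R 4.3.3 on log2(FPKM + 1), with a variance trend, two-sided, and Benjamini-Hochberg adjustment over all tested loci at 0.05. The fit was run on simulated data with planted changes larger than any found here for an Eph or ephrin gene. That run checked the estimates and does not give the power for changes of the size reported. Only loci that name a single gene entered the counts. The named genes are all 9 members, the rest of the family, and from each partner list the 3 smallest p. Members, lists and rules were chosen with earlier results of these data known. Positions and overlapping exons are from GENCODE release 29 (GRCh38), which may differ from the authors' annotation. Alternatives covered pseudocounts, filters, scaling, variance settings, the replicate number as a block and each library left out. Python 3.11.15, pandas 2.3.3 and matplotlib 3.10.9 were used.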

Additional observations from a re-analysis of the deposited data

How the results depend on the processing

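An Eph or ephrin gene was called in 1 setting only. That was the fit with no filter on low values, which takes in 28418 loci listed at 0 in every library. It called 642 loci, among them 1 of the 9 genes, EFNA1 (log2 change -0.60, limma adjusted p = 0.0278, against at least 0.156 in the other settings), and 1 partner gene, PTPN13 (adjusted p = 0.0367). With only loci above 0 in at least 1 library, an alternative chosen after seeing the data, 1 locus was called, which was no Eph, ephrin or partner gene, and the adjusted p of EFNA1 was 0.745. The number of loci called, 3, was 5 with a pseudocount of 0.1, 6 without a variance trend, 5 with robust variances and 1 at an adjusted p under 0.01. With the replicate block it was 5, with no change to any call on the 9 genes but 1 rather than 4 at an unadjusted p under 0.05, and same-numbered libraries did not deviate together (r = -0.06 over 13246 loci). Leaving out 1 library gave 17 to 37 called loci, and 5 to 8 of the 9 genes without overlap, where fewer samples make overlap rarer (57.8% to 84.6% of all loci). With a library left out, log2 changes ran from -0.0200 to 0.13 for EPHB2, -0.18 to 0.0570 for EPHB4, -0.25 to 0.32 for EFNA5 and -0.12 to 0.0434 for EPHA6, which was 0.0124 after quantile normalization. The cause was not tested. The directions of EPHA2, EPHA4, EFNA1, EFNB1 and EFNB2 were the same in every setting run, of which the filter at a mean of 5 FPKM left out EPHA4 and EFNB1. For most settings that was fixed in advance. The libraries of these genes did not overlap, so leaving out a library or changing the pseudocount could not reverse them. Filters, variance settings and the block leave the change itself as it is, so only the scaling settings could have moved a direction. Tests of the low genes EPHB3 and EPHA1 were limited by the filter, and the depth is unknown.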
